A study of Mus musculus with 7 samples.

Results

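Desmosomes are the button-like junctions that tie the keratin filaments of neighbouring epithelial cells together, and the genes described here code for their parts. The 10 genes were taken from a fixed list: the cadherins Dsg2, Dsg3, Dsc1, Dsc2 and Dsc3, the armadillo proteins Jup, Pkp1 and Pkp3, and the plakins Dsp and Ppl. Of them 9 had an array probe set annotated with that symbol alone, out of 19937 genes measured in that way, and Dsc1 was not analysed here. Transcripts were measured on 7 Affymetrix arrays of medullary thymic epithelial cells (MECs) with high MHC class II, sorted from collagenase and dispase digests of thymus. The reconRAG1KO group (4 samples, the control) came from NOD mice null for RAG1, a recombinase of developing lymphocytes, and the reconSCID group (3 samples) from NOD mice with the SCID mutation in DNA-PK, a DNA repair kinase. Recipients of both groups were pups of 2 to 4 days, irradiated with 200 rad and injected 6 h later with bone marrow, and their thymi were taken 6 to 8 weeks after the transfer. The donor strain of the marrow and the number of thymi behind each sample are not given in the sources used here, so p-values measure the spread between these samples.

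Desmogleins and desmocollins reach across the gap between cells, plakoglobin (Jup) and the plakophilins bind their tails, and desmoplakin (Dsp) anchors the plaque to keratin. Autoantibodies against desmoglein 3 mark pemphigus vulgaris, a blistering disease of mucosa and skin, and desmocollins, desmoplakin, envoplakin and periplakin (Ppl) are further targets in its rarer forms. In the thymus, medullary epithelial cells hold such junctions themselves and also display proteins of skin and mucosa to developing T cells, which is one route to tolerance of these antigens. The comparison asks how the transcripts of these antigens differ where DNA-PK is defective.

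No desmosomal gene passed the test between the groups. In 7 of the 9 the reconSCID mean was the lower one, with a median log2 difference (reconSCID minus reconRAG1KO) of -0.18, against -0.01 over all genes, of which 52.4% were lower. The largest differences were those of desmoplakin (-0.44), desmocollin 2 (-0.42) and desmoglein 2 (-0.36), while desmoglein 3 (0.15) and desmocollin 3 (0.12) were higher. By limma, 0 of 9 had an unadjusted p under 0.05, the share over all genes being 1.19% lower and 0.863% higher, and the adjusted p was 1 for each. Over all 34760 probe sets, 0 (0%) passed after adjustment, and 1.13% were lower and 2.2% higher at an unadjusted p under 0.05. The groups overlapped in all 9 genes; 1.54% of all genes were lower in every reconSCID sample than in every control, and 1.23% higher. In bulk samples such as these, fewer cells of a type and less RNA per cell cannot be told apart. The arrays differed far more within the groups than between them, and reconSCID replicate 3 had the lowest value of all 7 arrays in 8 of the 9 genes. That array was the lowest in 23.7% of all genes.

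The arrays did not form a single set. ReconRAG1KO replicate 4 and reconSCID replicate 2 correlated with each other at 0.972 over all probe sets and with the other 5 arrays at 0.922 to 0.947, and the 5 correlated among themselves at 0.976 to 0.990. The labels name no batch. Each set holds both groups, so each member's difference is given for all 7 arrays, for all 7 in a fit with the set as a further term (the blocked fit), and within the 5 arrays. The 2 arrays give a single difference with no test. Of the markers of the sorted cells, Aire, Fezf2, Cd80, Cd40, Tnfrsf11a, Relb, Ccl19, Hdc and Spib, 9 measured of 10 listed, were above the array median on every array. So were 8 or 9 of 9 thymocyte and T cell markers, so this level does not tell the sorted cells from others.

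Desmoglein 2, the desmoglein of simple as well as stratified epithelia, measured log2 9.07, 9.34, 9.52 and 9.66 in reconRAG1KO replicates 1 to 4 and 8.97, 10.01 and 8.14 in reconSCID replicates 1 to 3. The reconSCID samples held both the highest and the lowest value, and the groups overlapped. The means were 9.40 ± 0.25 (SD, n = 4) and 9.04 ± 0.94 (SD, n = 3), a log2 difference of -0.36 with a 95% interval from -1.35 to 0.63. Among the 5 arrays of the larger set both reconSCID values lay below all 3 controls, with a difference of -0.76 and an interval from -1.56 to 0.05 (-0.43 and -1.17 to 0.31 in the blocked fit), whereas in the 2 other arrays reconSCID was higher by 0.35. Without reconSCID replicate 3 the difference of Dsg2 over the remaining 6 arrays was 0.09.

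Desmoglein 3, the main antigen of pemphigus vulgaris, measured 5.60, 5.90, 5.90 and 6.22 in reconRAG1KO and 5.90, 6.80 and 5.45 in reconSCID. It exceeded the array median only in reconSCID replicate 2, the highest sample, so its signal was weak. The deposited value was exactly the same in reconRAG1KO replicates 2 and 3 and reconSCID replicate 1. No other member had equal values on any arrays, and 46.2% of all probe sets had a tie of any kind. The means of Dsg3 were 5.91 ± 0.25 (SD, n = 4) and 6.05 ± 0.69 (SD, n = 3), a log2 difference of 0.15 with an interval from -0.62 to 0.91. The blocked difference of Dsg3 was 0.08 (-0.39 to 0.55), and within the 5 arrays the difference had the other sign, -0.12 (-0.62 to 0.37).

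Desmocollin 2, the widely expressed desmocollin, measured 7.68, 8.09, 8.25 and 8.95 in reconRAG1KO and 7.77, 8.63 and 7.06 in reconSCID. ReconSCID replicate 3 was again the lowest and reconRAG1KO replicate 4 the highest. The means were 8.24 ± 0.53 (SD, n = 4) and 7.82 ± 0.78 (SD, n = 3), and the log2 difference of Dsc2 was -0.42 (-1.44 to 0.60), or -0.51 (-1.05 to 0.03) in the blocked fit. Of the 4 measured cadherins among the members Dsc2 was the 1 with a lower mean in both sets, with differences of -0.59 (-1.37 to 0.19) in the 5 arrays and, single array against single array, -0.32 in the 2. Desmocollin 3, the form of basal stratified epithelium, measured 6.90, 6.94, 7.41 and 8.63 in reconRAG1KO and 7.15, 8.77 and 6.86 in reconSCID. Its values split by array set and not by group: the 2 arrays stood at 8.63 and 8.77 and the 5 between 6.86 and 7.41. The log2 difference of Dsc3 was 0.12 (-1.30 to 1.55), and in the blocked fit it was -0.01 (-0.39 to 0.37). Within the 5 arrays it was -0.08 (-0.62 to 0.47).

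**Figure D1:**
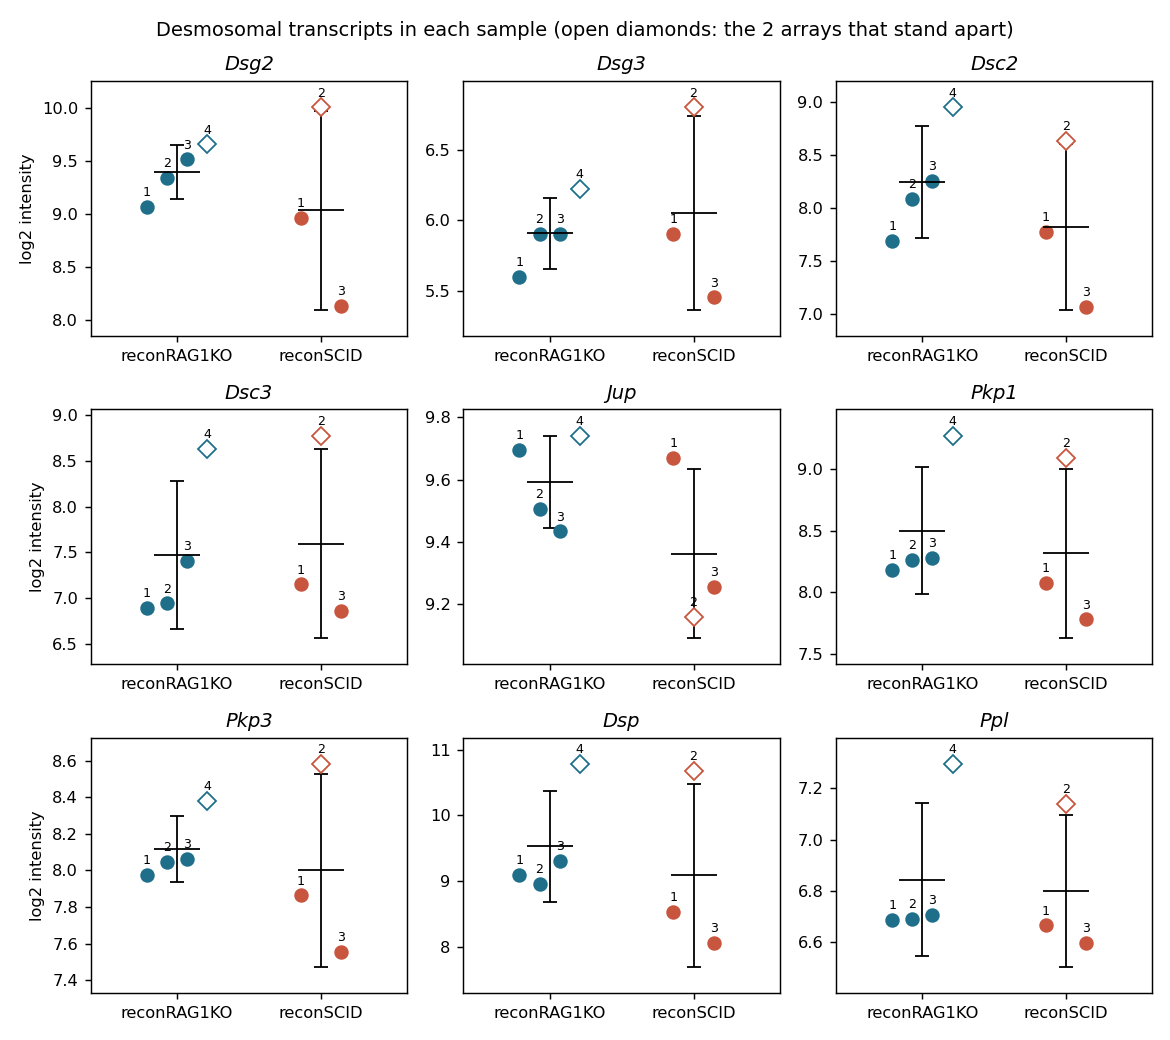
Log2 intensity of the 9 measured desmosomal genes, 1 panel per gene with its own axis, by group; numbers are replicates, horizontal bars and whiskers are the group mean ± SD (n = 4 and 3), and open diamonds are reconRAG1KO replicate 4 and reconSCID replicate 2. The open diamonds lie above all filled points in 8 of the 9 panels, and reconSCID replicate 3 is the lowest point in 8 of the 9.

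The armadillo proteins sit between the cadherin tails and desmoplakin. Plakoglobin, which adherens junctions share with desmosomes, measured 9.69, 9.50, 9.43 and 9.74 in reconRAG1KO and 9.67, 9.16 and 9.25 in reconSCID. Jup was the member that did not follow the array sets, since the 2 arrays held its highest value (reconRAG1KO replicate 4) and its lowest (reconSCID replicate 2). The means were 9.59 ± 0.15 (SD, n = 4) and 9.36 ± 0.27 (SD, n = 3), and the log2 difference of -0.23 had the narrowest interval without a block, -0.60 to 0.13, and the smallest unadjusted limma p of the members, 0.175. The difference of Jup was -0.58 between the 2 arrays and -0.08 (-0.51 to 0.35) within the 5, and the blocked fit gave -0.23 (-0.61 to 0.15).

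Plakophilin 1, the plakophilin of suprabasal epidermis, measured 8.18, 8.26, 8.28 and 9.27 in reconRAG1KO and 8.07, 9.09 and 7.78 in reconSCID. Within the 5 arrays both reconSCID values were below all 3 controls, as in 18.1% of all genes. In the 2 other arrays, single array against single array, reconSCID was also lower. The same held for Dsp and Ppl, and over all 7 arrays the groups overlapped. The log2 difference of Pkp1 was -0.18 (-1.13 to 0.76), and in the blocked fit it was -0.27 (-0.49 to -0.05), with an unadjusted limma p of 0.0225 and an adjusted p of 0.332. Within the 5 arrays it was -0.31 (-0.60 to -0.03). Plakophilin 3, found in nearly all desmosomes of simple and stratified epithelia, measured 7.98, 8.05, 8.06 and 8.38 in reconRAG1KO and 7.86, 8.58 and 7.56 in reconSCID. Its difference was -0.12 (-0.70 to 0.47) over 7 arrays, -0.32 (-0.61 to -0.03) within the 5 and 0.20 between the 2. The blocked difference of Pkp3 was -0.17 (-0.49 to 0.16), and without reconSCID replicate 3 that value was -0.019.

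Desmoplakin, the obligate link to keratin, had the widest spread of the members. It measured 9.09, 8.95, 9.30 and 10.78 in reconRAG1KO and 8.53, 10.67 and 8.06 in reconSCID. Both reconSCID samples of the larger array set lay below its 3 controls, and the 2 other arrays stood more than 1 log2 unit above all of these. The means of Dsp were 9.53 ± 0.85 (SD, n = 4) and 9.09 ± 1.39 (SD, n = 3), a log2 difference of -0.44 (-2.17 to 1.28). In the blocked fit it was -0.61 (-1.09 to -0.13), with an unadjusted limma p of 0.0211 and an adjusted p of 0.329, and within the 5 arrays it was -0.82 (-1.33 to -0.31). Without reconSCID replicate 3 the blocked difference of Dsp was -0.39, and without a block it was 0.07.

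Periplakin, a plakin of desmosomes and of the cornified envelope, measured 6.69, 6.69, 6.71 and 7.29 in reconRAG1KO and 6.67, 7.14 and 6.60 in reconSCID. The 3 controls of the larger set nearly coincided, and both reconSCID values of that set were just below them. The log2 difference of Ppl was -0.04 (-0.54 to 0.45), and in the blocked fit it was -0.09 (-0.22 to 0.04). Within the 5 arrays it was -0.06 (-0.18 to 0.05).

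**Figure D2:**
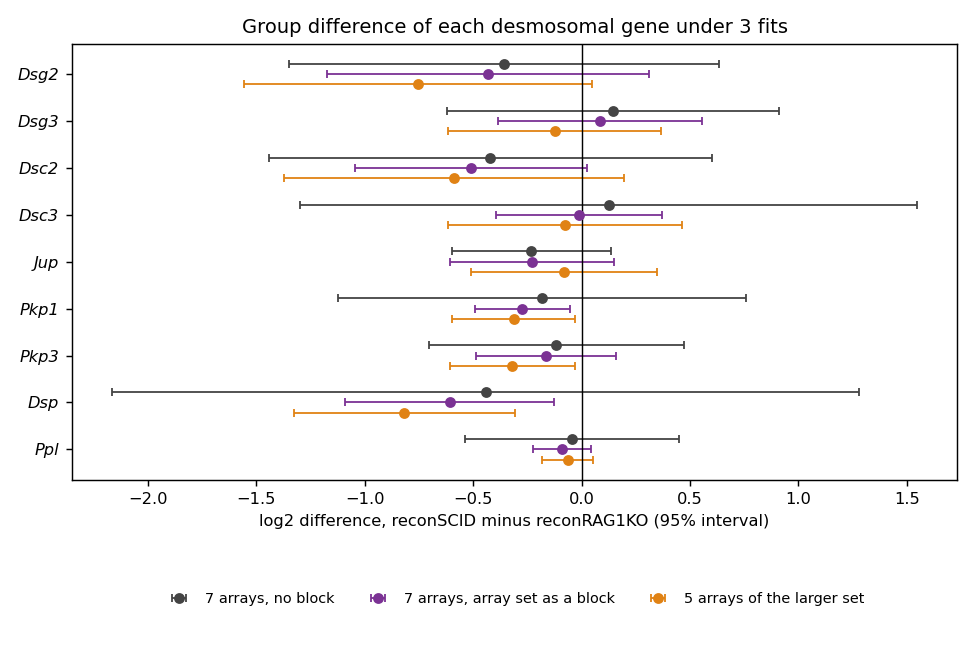
Log2 difference (reconSCID minus reconRAG1KO) of each gene with its 95% interval from limma, for all 7 arrays without a block, for all 7 in the blocked fit, and for the 5 arrays alone. Blocking narrows the intervals of 8 genes, Jup being the exception, and those of Dsp and Pkp1 then lie below 0; within the 5 arrays those of Dsp, Pkp1 and Pkp3 do.

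Set against all genes, more of the members were lower once the array set was accounted for, and none passed adjustment. In the blocked fit 8 of 9 were lower (54.3% of all genes), with a median of -0.23. By limma 2 of 9 were lower there at an unadjusted p under 0.05 (6.75% of all genes) and 0 higher (5.34%). Within the 5 arrays all 9 were lower (53.8% of all genes), with a median of -0.31, and by limma 3 of 9 were lower at an unadjusted p under 0.05 (7.78%) and 0 higher (7.65%). In 5 of 9, Dsg2, Dsp, Pkp1, Pkp3 and Ppl, both reconSCID values of these 5 arrays lay below all 3 controls, as in 18.1% of all genes, and in 0 of 9 above them (13.7%). Between the 2 arrays 5 of 9 were lower (51.8% of all genes), with a median of -0.11.

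ReconSCID replicate 3 carried much of this. Without it and without a block, 2 of 9 members were lower (47.8% of all genes), Dsc2 at -0.04 and Jup at -0.18, and the median was 0.09. In the blocked fit without this sample, 7 of 9 were lower (53.5% of all genes), the median was -0.08, and Pkp1 (-0.17) and Dsp (-0.39) were among them. Over the 7 fits that leave out 1 sample the median ran from -0.46 (without reconSCID replicate 2) to 0.09, and in the blocked fit from -0.35 to -0.08.

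The larger difference among these arrays was between the array sets. In 8 of 9 members both of the 2 arrays were above all 5 others, as in 37% of all genes (63.8% had the higher mean there), and the median log2 difference of the members (2 arrays minus 5) was 0.83, against 0.12 over all genes. Desmoplakin was the member furthest apart, at 10.73 in the 2 arrays and 8.79 in the 5, followed by desmocollin 3 at 8.70 and 7.05. Plakoglobin averaged 9.45 and 9.51. The sets were found from these same arrays, so these values are a description without a test. Hemidesmosome genes were higher in the 2 arrays in 8 of 8 (median 0.99) and keratins in 13 of 13 (0.88). General epithelial markers were higher in 16 of 17 (0.43), cortical ones in 7 of 8 (1.02) and medullary ones in 5 of 9 (0.03). Fibroblast and endothelial markers were higher there in 9 of 10, with a median of 1.06. Dendritic cell and macrophage markers differed in the other direction, 11 of 11 being lower with a median of -1.07. The part of these other cell types in the desmosomal values was not tested.

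Promoter sequences show the 2 genes at the ends of that range, desmoplakin and plakoglobin, the 2 of the 10 with an entry in the RefSeq promoter table (build GRCm38.p6). The stretch printed runs from 250 to 51 bases before the annotated start site, at chr13:38151044-38151243 on the plus strand for Dsp and chr11:100397841-100398040 on the minus strand for Jup, 5′ to 3′ along the gene. Capitals mark the GC box GGGCGG, the motif of Sp1-type factors, on either strand.
Dsp: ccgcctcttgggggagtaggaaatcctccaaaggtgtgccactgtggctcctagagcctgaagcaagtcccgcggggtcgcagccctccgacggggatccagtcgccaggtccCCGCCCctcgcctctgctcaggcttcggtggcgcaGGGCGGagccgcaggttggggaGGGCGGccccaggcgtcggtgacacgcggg
Jup: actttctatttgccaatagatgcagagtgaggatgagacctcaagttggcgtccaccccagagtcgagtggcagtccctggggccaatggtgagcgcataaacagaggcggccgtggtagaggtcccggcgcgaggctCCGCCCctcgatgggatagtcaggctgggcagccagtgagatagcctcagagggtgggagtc
Dsp holds 3 GC boxes in this stretch and Jup 1, and 24.6% of 32851 promoter stretches of this length hold at least 1. The share that hold 3 was not counted, and G and C made up 71% of the Dsp stretch and 60.5% of the Jup stretch. The Grainyhead motif AACCNGTT (in 1.42% of the stretches), the AP-1 motif TGANTCA (5.57%), the Snail and Zeb E-box CAGGTG (14.4%), the TATA box TATAAA (9.14%) and the p53-family motif (0.396%), each searched on both strands, were in neither stretch. Bases closer to the start site than 51 were not searched, so a TATA box there would have been missed. The CACCC box (44.4%) was found in Jup at 2 places and not in Dsp. The measured members of the cadherin family are also neighbours: in the RefSeq table its 9 genes follow one another in the order Dsc3, Dsc2, Dsc1, Dsg1c, Dsg1a, Dsg1b, Dsg4, Dsg3, Dsg2 with 0 other protein-coding genes between them.

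The remaining desmosome genes had a smaller median difference than the members. Of the 9 listed, 8 were measured, and 7 were lower in reconSCID with a median of -0.12, or -0.16 in the blocked fit. Among the 8, Dsg1c and Dsg4 exceeded the array median on 0 arrays, so their signal was weak, and Pkp2 did on 3. Plakophilin 2 (Pkp2), the plakophilin of simple epithelia and heart, had a log2 difference of -0.19, and with the block its interval ran from -0.39 to -0.01. Unlike any member, Pkp2 was lower in every reconSCID sample than in every control, as were 1.54% of all genes. Corneodesmosin (Cdsn), the adhesive protein of cornified desmosomes, had -0.27, and -0.52 to -0.10 with the block. By limma 0 of 8 passed without the block at an unadjusted p under 0.05, and 2 of 8 were lower at that level with it, against 6.75% of all genes.

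Junctions and filaments around the desmosome were described from lists of their own. Hemidesmosome genes, whose products fix epithelium to the basement membrane and include the bullous pemphigoid antigens Col17a1 and Dst, were lower in 7 of 8, with a median of -0.19, where 52.4% of all genes were lower. The tetraspanin gene Cd151 and the laminin gene Lamb3 had log2 differences of -0.29 each, and Dst was the 1 that was higher (0.27). Adherens junction genes were lower in 10 of 12, with a median of -0.11; the nectin genes Nectin1 and Nectin2 differed by -0.20 and -0.12. Keratins, the filaments that desmoplakin binds, were lower in 12 of 13, with a median of -0.42. Among them Krt16 differed by -0.66, with an unadjusted limma p of 0.0211 and an adjusted p of 1, and the simple keratin Krt8 by -0.64. In the blocked fit 3 of 8, 3 of 12 and 5 of 13 of these lists were lower at an unadjusted p under 0.05 in limma, against 6.75% of all genes, and 0 after adjustment.

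Transcription factors of stratified and simple epithelium were lower in 11 of 11, Klf4 by less than the printed precision, with a median of -0.17. The epithelial factor Elf3 had a log2 difference of -0.62 and the differentiation factor Zfp750 of -0.27, and neither had an unadjusted limma p under 0.05 without the block. Trp63, the master factor of stratified epithelium, was at 9.18 and 9.16 in the 2 arrays and at 6.85 to 7.99 in the 5, a split like that of Dsc3. Antigens of paraneoplastic pemphigus and other blistering diseases were lower in 6 of 8, with a median of -0.06, and envoplakin (Evpl), the partner of periplakin, was higher by 0.08. The transglutaminase gene Tgm3 had a difference of -0.37 and the calcium pump gene Atp2c1 of -0.08. Without reconSCID replicate 3 the medians of the keratins, hemidesmosome genes, transcription factors and blistering antigens were -0.08, 0.14, 0.05 and 0.03, those of the remaining desmosome genes and the adherens junction genes were 0.03 and -0.004, and in the blocked fit without it they were -0.25, -0.13, -0.12, -0.11, -0.04 and -0.08.

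**Figure D3:**
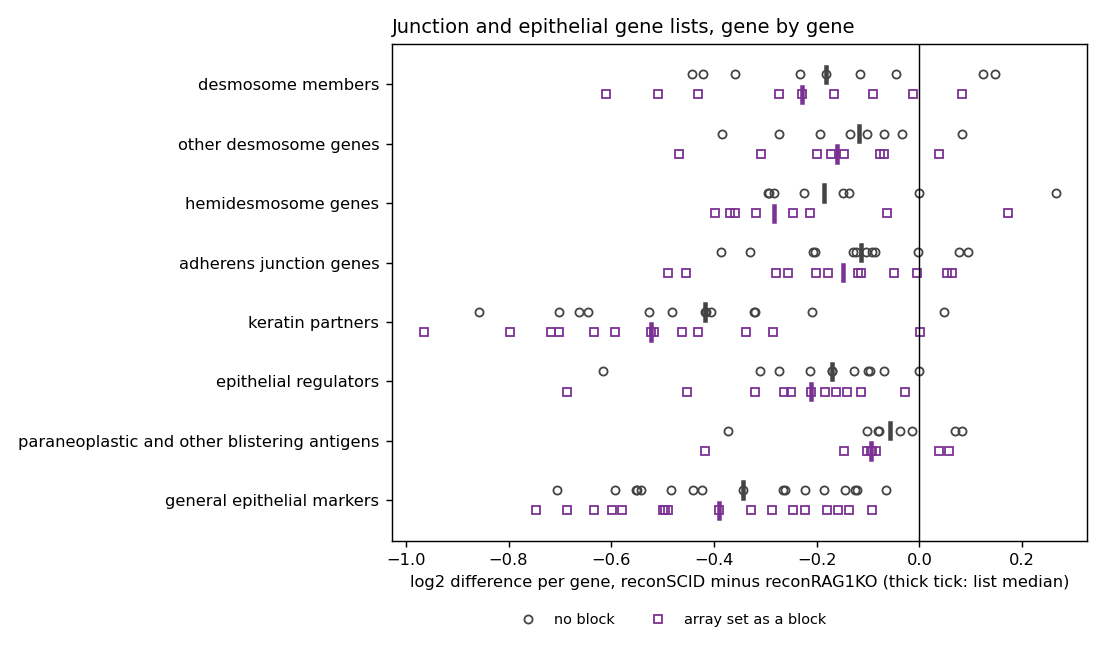
Log2 difference (reconSCID minus reconRAG1KO) of every measured gene in 7 junction, keratin, regulator and antigen lists and in the general epithelial markers, without a block (circles) and in the blocked fit (squares); thick ticks are list medians. Keratins have the lowest median without a block (-0.42), the desmosomal members lie at -0.18, and most points of every list are below 0.

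Markers of the epithelium and of other cells also differed between the groups. General epithelial markers such as Epcam, Cldn4 and Spint1 were lower in 17 of 17, with a median of -0.34, or -0.39 in the blocked fit. Without reconSCID replicate 3, 15 of 17 were lower with a median of -0.12, and in the blocked fit 16 of 17 with -0.22. Their summed intensity was 6641 to 9258 in reconRAG1KO and 4219 to 8392 in reconSCID, and reconSCID replicate 3 was the lowest of the 7. Cldn4 and Cldn3, the tight junction genes with the smallest p, had log2 differences of -0.71 and -0.55. Relative to the mean of these 17 markers in each array, a scaling chosen after seeing the data, the median over all genes was 0.35 and that of the desmosomal members 0.17. This scaling raised the difference of every gene alike, since the markers were lower in reconSCID. On that scale 6 of 9 members were higher, with a median below that of all genes, and the share over all genes was not counted. Dsg3, whose signal was weak, had a difference of 0.50 (0.04 to 0.96), with an adjusted limma p of 0.417. Of all 34760 probe sets 3192 were higher on it at an unadjusted p under 0.05, and 14 lower.

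B cell markers were higher in 9 of 9, with a median of 0.99, and their summed intensity was 978 to 1145 in reconRAG1KO and 1088 to 4033 in reconSCID, the highest being reconSCID replicate 3. Fcrl1 and Ebf1 had log2 differences of 0.99 and 0.91. The list's median was 1.05 in the blocked fit, 1.33 within the 5 arrays, 0.25 between the 2 (6 of 9 higher) and 0.56 without reconSCID replicate 3. Dendritic cell and macrophage markers were higher in 10 of 11, with a median of 0.20 and sums of 6883 to 11540 and 5341 to 18369, and Cd209a and Siglech differed by 0.53 and 0.18. This list had the other sign without reconSCID replicate 3, 9 of 11 being lower with a median of -0.21. Its median was 0.32 in the blocked fit, 0.60 within the 5 arrays and -0.17 between the 2 (7 lower). Neutrophil markers were lower in 10 of 10, with a median of -1.48 and sums of 1233 to 9528 and 984 to 1777, and Lcn2 and Ly6g differed by -1.52 and -1.47. Their median was -1.42 without reconSCID replicate 3, -1.37 in the blocked fit, -1.86 within the 5 arrays and -0.28 between the 2 (10 lower). The highest sums were those of reconRAG1KO replicates 2 and 3, 9528 and 5227. Thymocyte and T cell markers had a median of -0.01 (5 of 9 lower; Cd2 0.44, Ptcra 0.07), cortical epithelial markers of -0.27 (6 of 8 lower; Ccl25 -1.37, Dll4 -0.35), fibroblast and endothelial markers of 0.22 (8 of 10 higher; Pecam1 0.50, Pdgfra 0.42), and medullary markers of -0.38 (9 of 9 lower; Hdc -0.82, Relb -0.33). Without reconSCID replicate 3 these medians were -0.37 (7 of 9 lower), -0.19 (5 of 8 lower), 0.49 (9 of 10 higher) and -0.22 (9 of 9 lower). The blocked fit gave 0.02, -0.34, 0.10 and -0.32 in the same order, and the 5 arrays alone gave 0.19, -0.35, 0.02 and -0.35. Summed intensities in reconRAG1KO and reconSCID were 1924 to 3585 and 1567 to 4536 for the thymocyte list, 3381 to 7987 and 3121 to 4690 for the cortical list, and 1520 to 3953 and 1596 to 6592 for the fibroblast and endothelial list. Of the markers, 0 passed limma's adjusted threshold. At an unadjusted limma p under 0.05 in the blocked fit, more of several marker lists were called. Lower were 9 of 17 general epithelial, 5 of 9 medullary, 5 of 8 cortical and 4 of 10 neutrophil markers (6.75% of all genes). Higher were 7 of 9 B cell, 2 of 11 dendritic cell and macrophage and 2 of 10 fibroblast and endothelial markers (5.34%). Of the thymocyte and T cell markers 0 of 9 were called. The part of these cells in the desmosomal differences was not tested.

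**Figure D4:**
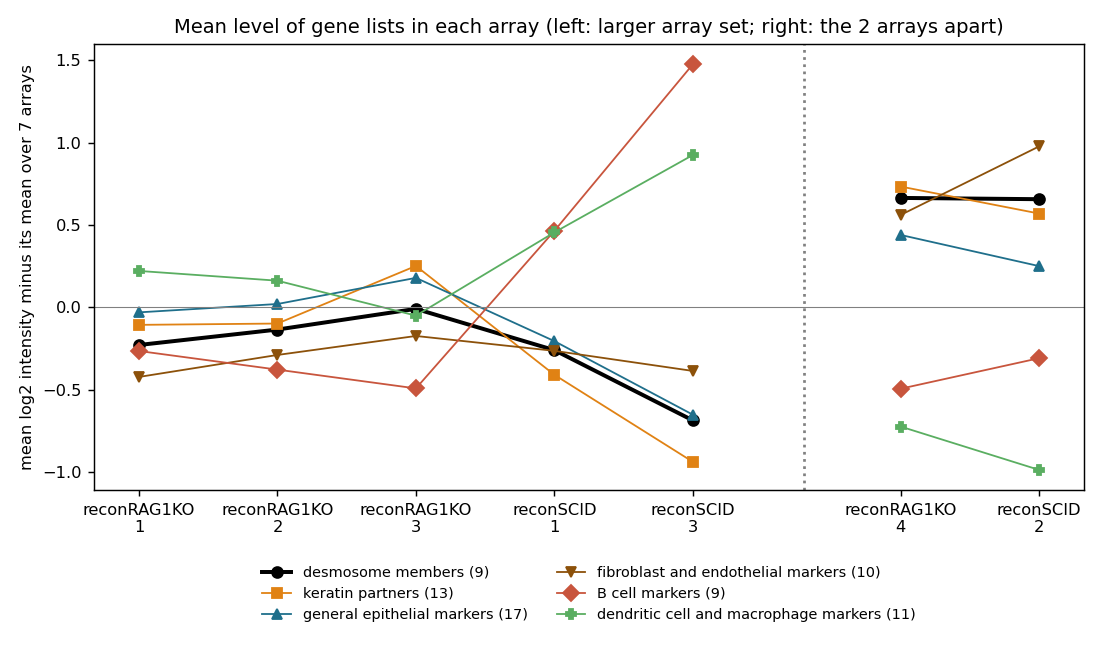
Mean log2 intensity of 6 gene lists in each array, minus the list's own mean over the 7 arrays; numbers in brackets are genes, lines only join points of a list, and the 2 arrays that stand apart are on the right. The desmosomal members are at 0.66 in both of those arrays and at -0.69 in reconSCID replicate 3, where the B cell markers are at 1.48.

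Across the 7 arrays, the mean centred profile of the 9 members was -0.23, -0.14, -0.01 and 0.66 in reconRAG1KO replicates 1 to 4 and -0.26, 0.66 and -0.69 in reconSCID replicates 1 to 3. Plakophilin 1 stayed closest to it, with a root mean square difference of 0.10 log2 units over the 7 arrays, and desmoplakin and plakoglobin were furthest, at 0.50 each. Of 9962 genes outside the list with at least the median level, Pgm5, Thbs3, Tnfrsf8, Csmd1 and Magi1 had the profiles most like it, at 0.05 to 0.06, against a median of 0.51.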

How the data were processed

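The authors deposited 1 intensity per probe set and array on a linear scale, already summarised from probes and brought to a similar level (medians 88.6 to 96.3); how this was done is not stated in the labels or files. Per the labels, biotinylated cRNA was made from 6 µg of total RNA. The platform annotation gives 1 symbol for 21640 of 34760 probe sets, several for 1321 and leaves 11799 unnamed. The lowest value was 4.30, so log2 was taken without a pseudocount. Each gene is its probe set with the highest mean. Groups and replicate numbers come from the sample titles.

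The group test was limma's moderated test (lmFit, eBayes; version 3.58.1, R 4.3.3) without a covariate. It was two-sided at a threshold of 0.05, and p-values were adjusted by Benjamini-Hochberg across the 34760 probe sets. The fits were tested on simulated data. Lists are described by counts and medians without a test. Named beside the members are the 2 genes of lowest unadjusted p per list and the 5 with the most similar profile; Trp63, Evpl and Dst were added after their values were seen. The members, the lists, the array sets and the alternatives were chosen with earlier results of these data known; scaling to epithelial markers was added later. Depth does not apply to arrays, and their number limits the precision. Alternatives were a pseudocount of 16, quantile or median scaling, dropping dim probe sets, array weights, a robust fit, blocks for array set or replicate number, the 5 arrays alone and leaving out each sample. Promoters were searched for exact motif letters.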

Additional observations from a re-analysis of the deposited data

Results flagged for a closer look

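In 2 of the 9 genes the highest of the 4 reconRAG1KO samples lay far from the others. For Pkp1 the gap between reconRAG1KO replicate 4 (9.27) and the next sample (8.28) was 0.915 of the group's whole range, and for Ppl the gap (7.29 against 6.71) was 0.969 of it. Both exceed Dixon's 95% critical value for 4 samples, which chance exceeds in about 1 group in 20. Replicate 4 is 1 of the 2 arrays that stand apart. Groups of 3 were not tested.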

How the results depend on the processing

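By limma 0 probe sets passed the adjusted threshold in either direction (with an unadjusted p under 0.05 there were 765 higher, 394 lower), and this held under every alternative except array weights (47 higher and 10 lower) and centring on epithelial markers in the blocked fit (1259 higher and 9 lower). Leaving out each sample gave 0 throughout. The member median kept its sign except without reconSCID replicate 3 and on the epithelial scale. Leaving out each sample gave 2 to 9 lower members and medians of -0.46 to 0.09, and in the blocked fit 7 to 9 and -0.35 to -0.08. On the epithelial scale 3 of 9 members were lower with and without the block, and the share over all genes was not counted. The medians there were 0.17 for the members and 0.35 over all genes, or 0.17 and 0.38 in the blocked fit.

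Some genes changed sign. Dsc3 was -0.013 in the blocked fit and -0.076 within the 5 arrays, where Dsg3 was -0.12. Jup was 0.051 with array weights. On the epithelial scale, without and with the block, Jup was 0.12 and 0.17, Pkp1 0.17 and 0.12, Pkp3 0.24 and 0.23, and Ppl 0.31 and 0.31. Leaving out each sample gave ranges of -0.84 to 0.092 (Dsg2), -0.23 to 0.45 (Dsg3), -0.46 to 0.51 (Dsc3), -1.23 to 0.072 (Dsp), -0.57 to 0.086 (Pkp1), -0.41 to 0.11 (Pkp3) and -0.21 to 0.11 (Ppl); in the blocked fit they were -0.12 to 0.29 for Dsg3 and, for Dsc3, -0.077 to 0.10, with -0.066 and -0.051 without reconRAG1KO replicates 1 and 2. The cause of these changes was not tested.

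Replicate numbers did not pair the samples: deviations of same-numbered samples correlated at 0.47, -0.51 and 0.31, and 2 of 6 samples correlated best with their own number. With the replicate number as a block, a fit that leaves out reconRAG1KO replicate 4, the median was -0.03 and 0 probe sets passed. Pkp1 was 0.075 and Ppl 0.11 there. Leaving out that sample without a block gave the same values. Each of the 9 genes had 1 probe set, so averaging changed nothing. A filter keeping probe sets at or above the median level left 8 members, without Dsg3.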
